A study of Mus musculus with 10 samples.

Results

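Chemokine genes and the genes of their receptors were examined in RNA sequencing libraries of mice after myocardial infarction (MI), with and without navarixin (Nav), an orally active blocker of the chemokine receptors CXCR1 and CXCR2. They were taken by name, as every row of the expression table whose symbol starts with Ccl, Cxcl, Ccr, Cxcr or Ackr followed by a digit, together with Cx3cl1, Cx3cr1, Xcl1, Xcr1, Ppbp and Pf4. This gave 63 of 29868 genes, which were 40 ligand genes, 21 receptor genes and 2 pseudogenes of Ccl19. The rule used names and no measured value, but it was chosen with earlier results of these data known. The 10 libraries were 5 from wild-type mice with infarction and navarixin, called MI_NAV 1 to MI_NAV 5 here, and 5 from wild-type mice with infarction alone, called MI 1 to MI 5. Male C57BL/6 mice, 8 weeks old, had the left anterior descending coronary artery tied and were then dosed by mouth once a day for 4 weeks, with navarixin at 1 mg/kg in the MI_NAV group and with saline in the MI group. Both groups thus carried the same surgical injury, and sham-operated mice were not analysed here. The day of tissue collection and the mouse behind each library are not stated in the sources used here, so that p-values measure the spread between libraries. The batch recorded in the labels equals the group, so that the treatment and the batch cannot be told apart.

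The tissue label of all 10 libraries was heart. Of 10 heart muscle genes looked up, 9 were in the table and 0 reached 0.5 FPKM (mapped fragments of a gene, scaled to the length of its transcript and to the size of the library) in 5 or more libraries, and their summed FPKM was 0.725 to 1.40 in MI_NAV libraries and 0.842 to 1.67 in MI libraries. A list of 10 genes of the proximal tubule of the kidney summed to 34500 to 52360 FPKM in MI_NAV libraries and to 32040 to 58380 FPKM in MI libraries. The values are therefore given as those of the libraries, and not of heart muscle. The depth estimated from low values was 16740000 to 20510000 fragments in MI_NAV libraries and 17940000 to 18780000 in MI libraries, at which 0.5 FPKM of a transcript of 1 kb rests on 8.37 to 10.3 fragments. The share of the FPKM total that fell on genes of the mitochondrial genome was 26.0 to 45.4% in MI_NAV libraries and 24.4 to 40.6% in MI libraries.

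Chemokines are small secreted proteins that guide the movement of leukocytes, and they are classed by the spacing of the first cysteines as CXC, CC, CX3C and XC. They bind receptors of the G protein-coupled kind, most of which signal through inhibitory G proteins, whereas the atypical receptors (Ackr genes) take up ligands without that signal. CXCR2 is the main receptor for chemokine-guided movement of mouse neutrophils, and CCR2 is that of inflammatory monocytes. In the infarcted heart both routes bring leukocytes into the injured wall, and in the kidney tubular and endothelial cells are themselves sources of Cxcl1, Cx3cl1 and Cxcl16.

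Of the 63 genes, 24 were expressed at levels that could be tested (38.1%), and few of these encode receptors. A gene was tested where it reached 0.5 FPKM in at least 5 of the 10 libraries, which 20 of 40 ligand genes did (50%), against 3 of 21 receptor genes (14.3%) and 44.9% of all genes in the table. In every library 13 ligand genes and 13 receptor genes were below 0.5 FPKM. The tested receptors were Ackr3, Cxcr4 and Ccr2. By role, the ligands kept were 2 of 6 of CXCR2, 2 of 3 of CXCR3, 4 of 6 other CXC ligands, 4 of 5 in the group of Ccl3, Ccl4, Ccl5, Ccl6 and Ccl9, 4 of 4 of CCR7, 3 of 6 other CC ligands and 1 of 2 in the CX3C and XC classes. None of the 4 ligands of CCR2, the 2 eotaxins or the 2 ligands of CCR4 was kept. The pseudogene Ccl19-ps3 was kept as well, and Ccl19-ps1 was not. The expression table had no row named Cxcr1, Ccl26 or Ccr1l1, and further copies of Ccl21 were not analysed here.

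The most abundant of the genes, by mean FPKM over the 10 libraries, were Cxcl16 (11.1), a membrane-bound ligand of CXCR6, Ackr3 (9.51), a scavenging receptor for CXCL12, Cxcl12 itself (8.20), the ligand of CXCR4, and Cx3cl1 (6.80), the ligand of CX3CR1. Ccl21a (3.96), Ccl27a (3.64), Cxcl14 (3.61) and Cxcl1 (3.40) came next, and the other 16 tested genes lay between 0.424 and 1.55. The plot of levels by gene shows this steep order and how low most receptors lay.

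**Figure D1:**
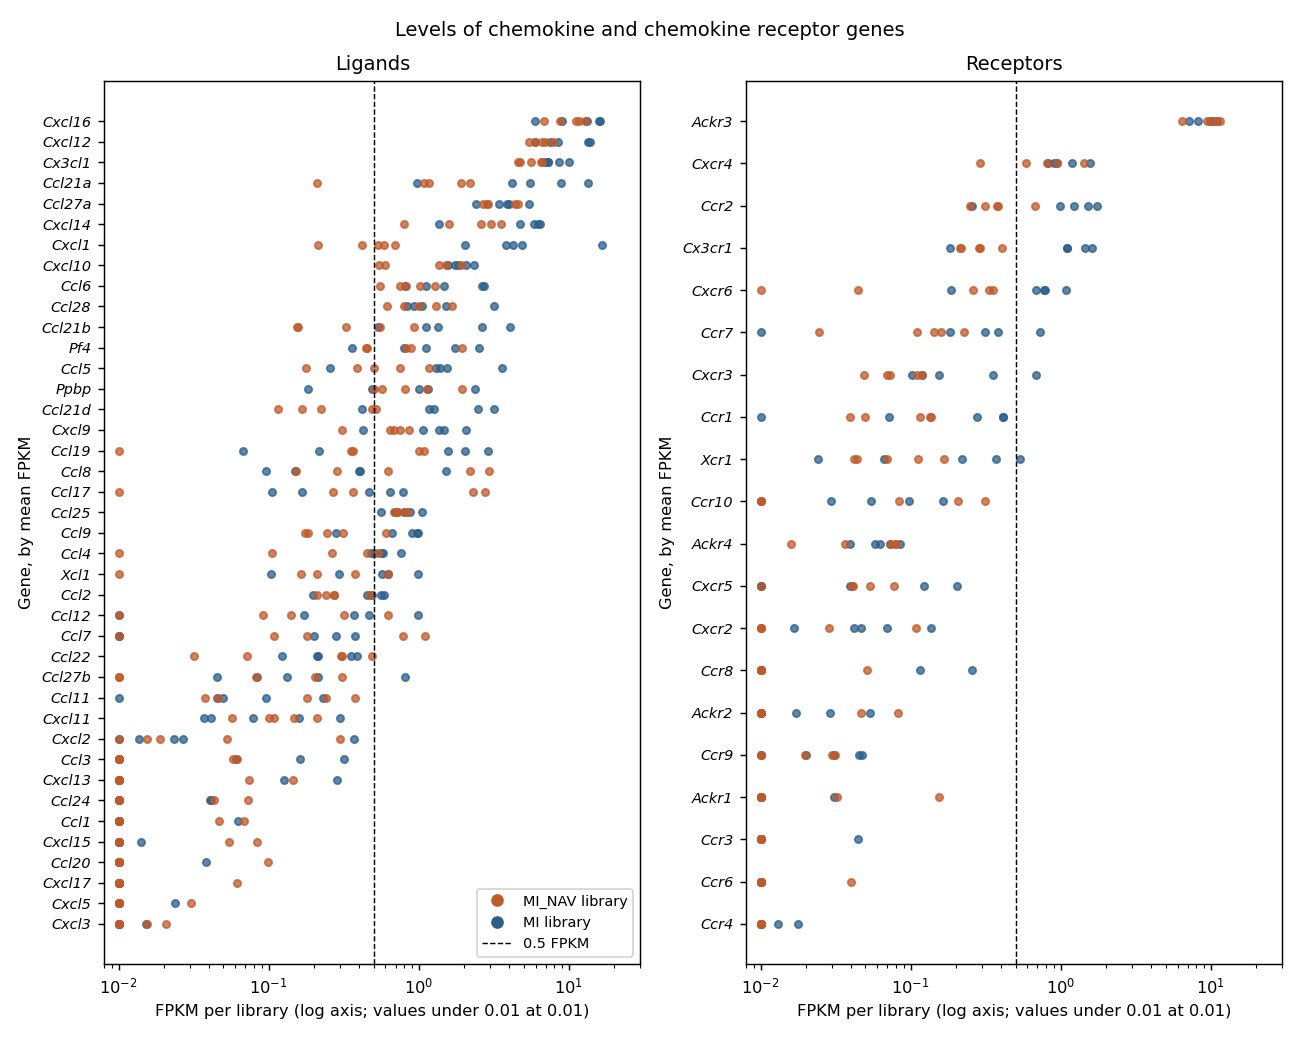
FPKM of 40 ligand genes (left) and 20 receptor genes (right) in each library on a log axis, with MI_NAV libraries in orange, MI libraries in blue and the detection limit of 0.5 FPKM dashed. Ackr3 is the only receptor in the range of the abundant ligands, and 13 of the ligand genes and 12 of the receptor genes shown lie left of the line in every library.

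Cxcl1, a neutrophil-attracting ligand of CXCR2, was the ligand with the largest difference between the groups and the single tested chemokine or receptor gene to pass the test. Its FPKM was 0.586, 0.418, 0.695, 0.212 and 0.532 in MI_NAV 1 to 5, against 2.05, 4.86, 4.26, 16.6 and 3.79 in MI 1 to 5. All MI_NAV libraries lay below all MI libraries, and MI 4 alone was above 5 FPKM. The mean was 0.489 ± 0.184 FPKM in MI_NAV libraries and 6.31 ± 5.84 FPKM in MI libraries (SD, n = 5 each), a log2 fold change of MI_NAV over MI of -2.48 (standard error of the fold change, SE, 0.395, adjusted p = 0.0317, limma on log2(FPKM + 0.5) with Benjamini-Hochberg adjustment over 13412 genes). On this scale the change of a gene with low FPKM is understated. Over all tested genes 0.35% passed as lower and 0.0149% as higher. Without MI 4 the Cxcl1 log2 fold change was -2.07 (SE 0.226, adjusted p = 0.00146, limma), whereas leaving out any of the 5 MI_NAV libraries, or MI 2, MI 3 or MI 5, took its adjusted p to between 0.0513 and 0.0995 (limma).

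The CXCR2 ligands sit side by side on chromosome 5 of mm10, and their promoters are shown because the neighbours of Cxcl1 carry the same short motif but had little RNA. Cxcl5, Ppbp, Pf4, Cxcl3, Cxcl15, Cxcl1 and Cxcl2 lie in that order within 147 kb (90759360 to 90905938), and Cxcl1 (ENSMUSG00000029380, 90891241 to 90893115, plus strand) and Cxcl2 are 10.8 kb apart. The letters GGAATTTCC, a form of the κB site that NF-κB binds, were searched on both strands from 250 bases before to 50 bases after each start in the RefSeq promoter table (build GRCm38.p6, which is mm10). They were found in 104 of 32851 promoters (0.317%), and among the 47 genes studied here that had a promoter in the table they were found in Cxcl1, Cxcl2, Cxcl3, Cxcl10 and Ccr3. Each line below gives the bases up to the last base before the start, 5′ to 3′ on the strand of the gene, with the motif in capitals. The windows are chr5:90891095-90891244 for Cxcl1, chr5:90903749-90903898 for Cxcl2 and chr5:90785951-90786100 for Cxcl3, all on the plus strand.
Cxcl1: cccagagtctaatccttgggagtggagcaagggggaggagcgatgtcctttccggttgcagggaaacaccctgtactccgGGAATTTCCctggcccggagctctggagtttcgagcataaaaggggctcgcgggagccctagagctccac
Cxcl2: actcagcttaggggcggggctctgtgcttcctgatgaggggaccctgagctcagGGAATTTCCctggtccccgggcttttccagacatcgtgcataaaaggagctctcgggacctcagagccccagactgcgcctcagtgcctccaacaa
Cxcl3: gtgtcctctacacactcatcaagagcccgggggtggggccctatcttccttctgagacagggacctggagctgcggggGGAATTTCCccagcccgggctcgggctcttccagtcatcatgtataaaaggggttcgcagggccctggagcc
The motif began 70 bases before the start in Cxcl1, 96 in Cxcl2 and 72 in Cxcl3. A match of letters is a description of the window and not a measured site.

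Cxcl2, which shares these promoter letters and also attracts neutrophils, had 0.299, 0.0155, 0, 0.0529 and 0.0190 FPKM in MI_NAV 1 to 5 and 0, 0.0234, 0.0136, 0.370 and 0.0269 FPKM in MI 1 to 5. Its highest value was in MI 4, the library with the most Cxcl1, but the groups overlapped and it was too low to be tested. Cxcl3 was at 0, 0, 0, 0.0155 and 0.0208 FPKM in MI_NAV 1 to 5 and at 0, 0.0153, 0, 0 and 0 FPKM in MI 1 to 5. Cxcl5 was listed above 0 only in MI_NAV 4 (0.0302 FPKM) and MI 3 (0.0238 FPKM). Cxcl15, a chemokine mainly of the lung, was listed above 0 only in MI_NAV 2 (0.0834 FPKM), MI_NAV 5 (0.0546 FPKM) and MI 2 (0.0141 FPKM). Of the ligands of CXCR2, only Cxcl1 and Ppbp were therefore present above the detection limit.

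Ppbp, the precursor of a platelet chemokine that acts on CXCR2 once trimmed, was at 1.93, 0.502, 1.13, 0.809 and 0.568 FPKM in MI_NAV 1 to 5 and at 0.486, 1.01, 2.38, 0.182 and 1.15 FPKM in MI 1 to 5. The groups overlapped throughout, and the log2 fold change was 0.04 (SE 0.354, adjusted p = 0.976, limma). Pf4, platelet factor 4 and its neighbour on the chromosome, averaged 0.908 ± 0.608 FPKM in MI_NAV libraries and 1.31 ± 0.850 FPKM in MI libraries (log2 fold change -0.32, adjusted p = 0.724, limma). The summed FPKM of 6 platelet genes overlapped likewise, at 0.903 to 3.02 in MI_NAV libraries and 1.41 to 2.83 in MI libraries.

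Cxcr2, the receptor of these ligands and the target of navarixin, was far below the detection limit of 0.5 FPKM. It was listed at 0, 0.109, 0.0288, 0 and 0 FPKM in MI_NAV 1 to 5 and at 0.0416, 0.0700, 0.0469, 0.0167 and 0.137 FPKM in MI 1 to 5, which at the estimated depth is 0 to 7 fragments per library. A difference between the groups was not detectable at this depth. Of 12 neutrophil markers, 8 were in the table and 3 were tested. Their summed FPKM was 2.79, 3.40, 2.05, 4.14 and 2.62 in MI_NAV 1 to 5 and 3.86, 7.75, 7.54, 1.91 and 6.38 in MI 1 to 5. Among them S100a9, a calcium-binding protein of neutrophils and monocytes, averaged 1.21 ± 0.544 FPKM in MI_NAV libraries and 2.94 ± 1.69 FPKM in MI libraries and did not pass (adjusted p = 0.391, limma). The other tested markers did not pass either, S100a8 with a log2 fold change of -0.48 (adjusted p = 0.570, limma) and Lcn2, lipocalin-2, which tubular cells also make, with one of 0.35 (adjusted p = 0.551, limma). Ngp, a granule protein of neutrophils, was at 0 in 9 of 10 libraries. The sum was the lowest of the MI group in MI 4, the library in which Cxcl1 was highest, but of the 8 genes only Csf3r, S100a8 and S100a9 were lowest there.

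**Figure D2:**
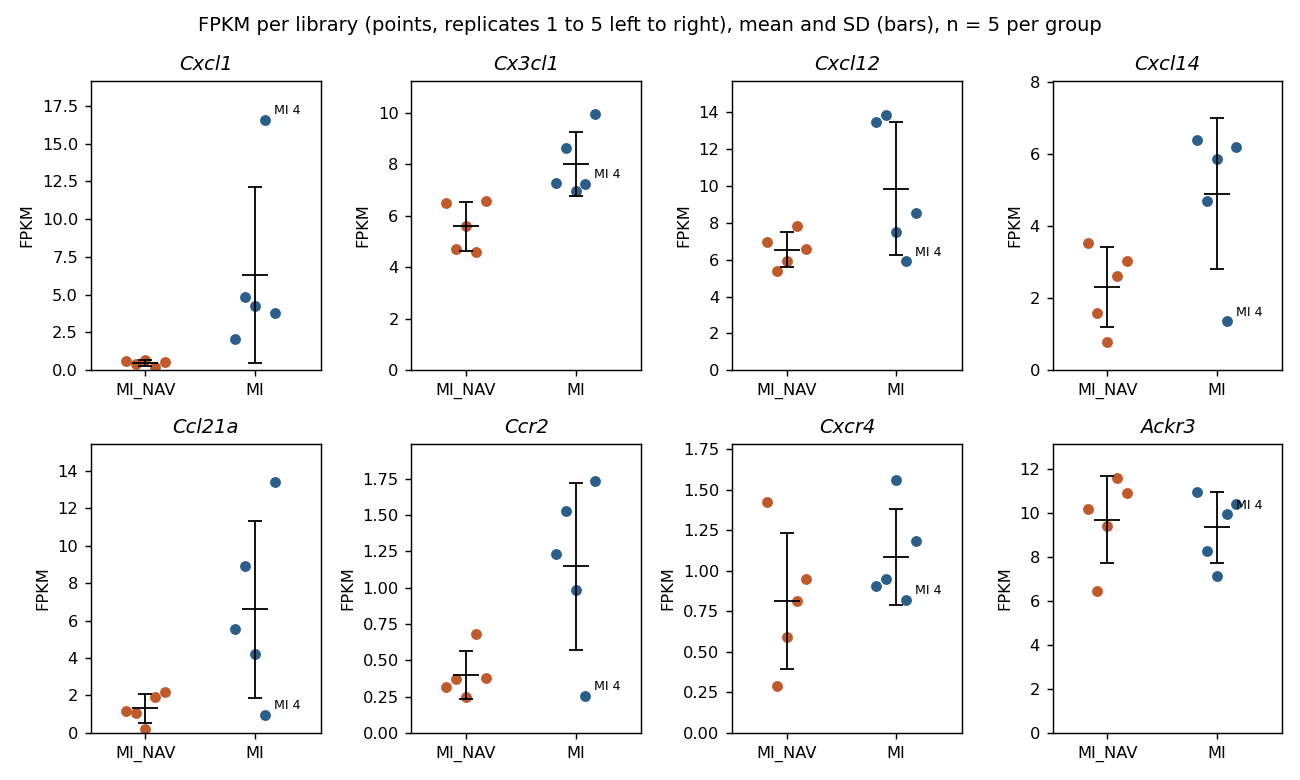
FPKM of 5 ligands and 3 receptors in each library (points), with the mean and SD of the group (bars, n = 5), MI_NAV left and MI right. Cxcl1 and Cx3cl1 are the genes shown whose groups do not overlap in deposited FPKM. MI 4 is highest for Cxcl1 but within the MI_NAV range for Cxcl12, Cxcl14, Ccl21a and Ccr2.

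The ligands of CXCR3, which draw activated T and natural killer cells and are induced by interferon, were present at about 1 FPKM. Cxcl10 was at 1.52, 0.592, 0.540, 1.91 and 1.36 FPKM in MI_NAV 1 to 5 and at 2.06, 1.57, 1.84, 2.34 and 1.73 FPKM in MI 1 to 5, so that every MI_NAV library but MI_NAV 4 lay below the whole MI group (log2 fold change -0.59, SE 0.229, adjusted p = 0.317, limma). Cxcl9 averaged 0.649 ± 0.207 FPKM in MI_NAV libraries and 1.27 ± 0.594 FPKM in MI libraries (log2 fold change -0.57, adjusted p = 0.358, limma), and Cxcl11 was at most 0.299 FPKM. These 3 genes lie within 44 kb of chromosome 5 (92321347 to 92365485), and the Cxcl10 promoter is shown because it held both motifs that were searched. The interferon letters GAAANNGAAA, a short form of the interferon response element, were found on either strand in 1131 of 32851 promoters (3.44%), and here in Ccl19, Cxcl10 and Cxcl14. In the window chr5:92348890-92349139, read on the minus strand on which Cxcl10 lies, the first capitals are the interferon letters, which began 213 bases before the start, and the second are the κB letters on the other strand, which began 158 bases before it. The motifs did not overlap.
Cxcl10: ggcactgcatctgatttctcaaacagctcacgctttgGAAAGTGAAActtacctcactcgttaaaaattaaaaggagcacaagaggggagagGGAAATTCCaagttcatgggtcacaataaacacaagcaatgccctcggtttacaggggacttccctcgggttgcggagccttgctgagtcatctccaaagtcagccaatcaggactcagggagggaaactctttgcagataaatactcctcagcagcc

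Among the other CXC ligands, Cxcl12, the retention signal for CXCR4-bearing cells, was at 6.95, 5.39, 5.91, 7.84 and 6.59 FPKM in MI_NAV 1 to 5 and at 13.5, 13.9, 7.50, 5.92 and 8.52 FPKM in MI 1 to 5. Only MI 1, MI 2 and MI 5 were above every MI_NAV library, and the difference did not pass (log2 fold change -0.50, SE 0.218, adjusted p = 0.369, limma). Cxcl16, which both tethers and attracts CXCR6-bearing lymphocytes, had 12.7, 6.80, 8.69, 11.2 and 11.6 FPKM in MI_NAV 1 to 5, against 13.2, 15.8, 8.98, 5.94 and 16.2 FPKM in MI 1 to 5. These ranges overlapped, with the lowest value of all in MI 4 (log2 fold change -0.17, SE 0.261, adjusted p = 0.819, limma). Cxcl14, a chemokine of epithelia and stroma, was at 3.54, 1.60, 0.793, 2.61 and 3.04 FPKM in MI_NAV 1 to 5 and at 6.38, 4.69, 5.87, 1.36 and 6.21 FPKM in MI 1 to 5. All MI libraries but MI 4 were above the MI_NAV range, and the log2 fold change was -0.91 (SE 0.391, adjusted p = 0.366, limma) with MI 4 and -1.26 (SE 0.287, adjusted p = 0.0382, limma) without it. Cxcl13, the B cell follicle chemokine, and Cxcl17, a mucosal one, were at most 0.286 and 0.0610 FPKM in any library.

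The CC ligands of monocyte recruitment were low. Ccl2, the principal ligand of CCR2, was at 0.274, 0.272, 0.477, 0.211 and 0.240 FPKM in MI_NAV 1 to 5 and at 0.590, 0.562, 0.450, 0.198 and 0.488 FPKM in MI 1 to 5, with MI 4 lowest of all 10 libraries. Ccl8 was uneven, with 2.18 and 2.94 FPKM in MI_NAV 1 and MI_NAV 4 and 1.52 FPKM in MI 3, and at most 0.620 FPKM elsewhere. Ccl7 and Ccl12 had their highest values at 1.10 FPKM, in MI_NAV 1, and 0.984 FPKM, in MI 2. Ccl17, a ligand of CCR4, showed a pattern like Ccl8, with 2.76 and 2.31 FPKM in MI_NAV 1 and MI_NAV 4 and at most 0.791 FPKM in the other libraries, while its partner Ccl22 was at most 0.491 FPKM. The eotaxins Ccl11 and Ccl24, ligands of the eosinophil receptor CCR3, stayed at or under 0.374 and 0.0725 FPKM. All 6 genes of the Ccl2 locus (Ccl2, Ccl7, Ccl11, Ccl12, Ccl8 and Ccl1, within 270 kb of chromosome 11, 82035571 to 82305690) missed the detection limit, whereas 4 of the 5 genes of the Ccl5 locus (Ccl5, Ccl9, Ccl6, Ccl3 and Ccl4, within 139 kb of chromosome 11, 83525778 to 83664683) were kept.

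The kept genes of that locus encode CC chemokines made mainly by macrophages and lymphocytes. Ccl9 was at 0.604, 0.174, 0.243, 0.183 and 0.315 FPKM in MI_NAV 1 to 5 and at 0.663, 0.903, 0.984, 0.283 and 0.974 FPKM in MI 1 to 5. Only MI 4 reached into the MI_NAV range, and the log2 fold change was -0.64 (SE 0.208, adjusted p = 0.226, limma), or -0.80 without MI 4 (SE 0.182, adjusted p = 0.0360, limma). Ccl4 was at 0.534, 0.265, 0.105, 0.451 and 0 FPKM in MI_NAV 1 to 5 and at 0.579, 0.560, 0.502, 0.762 and 0.478 FPKM in MI 1 to 5, and only MI_NAV 1 overlapped the MI group (log2 fold change -0.53, SE 0.202, adjusted p = 0.305, limma). Ccl5, the T cell and platelet chemokine RANTES, averaged 0.600 ± 0.384 FPKM in MI_NAV libraries and 1.62 ± 1.22 FPKM in MI libraries, and Ccl6 averaged 0.885 ± 0.280 FPKM in MI_NAV libraries and 1.75 ± 0.885 FPKM in MI libraries. Their log2 fold changes were -0.82 and -0.63 (adjusted p = 0.393 and 0.322, limma). Ccl9 reached 0.5 FPKM only in MI_NAV 1, MI 1, MI 2, MI 3 and MI 5, and Ccl4 only in MI_NAV 1 and in MI 1 to MI 4. Both were thus kept mainly through MI libraries. Ccl3, the remaining gene of the locus, was at most 0.320 FPKM.

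Apart from Cxcl1, the Ccl21 genes had the largest log2 fold changes among the ligands, but they did not pass the test with MI 4 included. Ccl21 guides T cells and dendritic cells that carry CCR7 into lymphatic vessels and lymph nodes. Ccl21a was at 1.17, 1.08, 0.211, 1.91 and 2.20 FPKM in MI_NAV 1 to 5 and at 5.53, 8.90, 4.20, 0.978 and 13.4 FPKM in MI 1 to 5. MI 4 was below 4 of the 5 MI_NAV libraries, and each other MI library was above them all. Ccl21b had 0.550, 0.157, 0.155, 0.933 and 0.325 FPKM in MI_NAV 1 to 5 and 1.11, 2.62, 1.35, 0.535 and 4.02 FPKM in MI 1 to 5. In Ccl21d the values were 0.490, 0.167, 0.115, 0.516 and 0.223 FPKM in MI_NAV 1 to 5 and 1.26, 2.48, 1.18, 0.419 and 3.18 FPKM in MI 1 to 5. Ccl21d thus reached 0.5 FPKM only in MI_NAV 4, MI 1, MI 2, MI 3 and MI 5, and was kept mainly through MI libraries. The log2 fold changes of Ccl21a, Ccl21b and Ccl21d were -1.76, -1.27 and -1.33 (SEs 0.556, 0.362 and 0.321, adjusted p = 0.226, 0.167 and 0.103, limma), and without MI 4 they were -2.24, -1.53 and -1.60 (adjusted p = 0.0162, 0.0241 and 0.00531, limma).

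These 3 genes are copies on chromosome 4 whose transcripts are alike in 864 of 870 bases (Ccl21a and Ccl21d), 400 of 402 (Ccl21a and Ccl21b) and 402 of 402 (Ccl21b and Ccl21d) in GENCODE M21. Reads of 1 copy can be given to another, so their values are uncertain as separate genes and are not 3 independent results. The same holds for Ccl19, the other ligand of CCR7, whose transcript matched the pseudogene Ccl19-ps3 in 324 of 324 bases and Ccl19-ps1 in 323 of 327. Ccl19 averaged 0.559 ± 0.464 FPKM in MI_NAV libraries and 1.36 ± 1.21 FPKM in MI libraries (log2 fold change -0.61, adjusted p = 0.638, limma), and Ccl19-ps3 averaged 0.686 ± 0.442 FPKM in MI_NAV libraries and 2.11 ± 1.62 FPKM in MI libraries (log2 fold change -0.94, adjusted p = 0.417, limma). Ccl19-ps1 was at most 2.00 FPKM, in MI 5. The lymphatic endothelial markers, 4 of 4 in the table and 1 tested, summed to 1.31 to 4.09 FPKM in MI_NAV libraries and 2.21 to 3.28 FPKM in MI libraries and overlapped. Pdpn, which podocytes of the kidney also express, made up most of that sum (2.30 ± 1.27 FPKM in MI_NAV libraries and 1.63 ± 0.279 FPKM in MI libraries, log2 fold change 0.26, adjusted p = 0.748, limma). The untested Flt4 was at 0.180 ± 0.0753 FPKM in MI_NAV libraries and 0.455 ± 0.173 FPKM in MI libraries, and Prox1 at 0.399 ± 0.197 FPKM in MI_NAV libraries and 0.600 ± 0.358 FPKM in MI libraries. Dendritic cell markers, 5 of 5 in the table and 0 tested, summed to 0.601 to 1.13 FPKM in MI_NAV libraries and 0.400 to 3.35 FPKM in MI libraries, with MI 4 lowest. Their part in the Ccl21 values was not tested. Of the tested genes, 8 also overlap a gene on the other strand (Cxcl16, Ccl6, Ccl25, Cxcl10, Ccl19, Ccl27a, Ccl21d and Ccl21a), and the sources used here do not say whether reads were assigned by strand.

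Of the remaining CC ligands, those of epithelia had log2 fold changes near 0. Ccl27a, a ligand of CCR10, was at 4.59, 2.84, 2.66, 4.37 and 2.91 FPKM in MI_NAV 1 to 5 and at 3.41, 2.40, 5.40, 3.97 and 3.87 FPKM in MI 1 to 5, with overlapping ranges (log2 fold change -0.11, SE 0.204, adjusted p = 0.852, limma). Its near copy Ccl27b, alike in 422 of 425 bases, was at most 0.810 FPKM. Ccl28, a mucosal ligand of CCR10 and CCR3, averaged 1.08 ± 0.421 FPKM in MI_NAV libraries and 1.50 ± 0.971 FPKM in MI libraries, with its highest value, 3.17 FPKM, in MI 4 (log2 fold change -0.27, adjusted p = 0.706, limma). Ccl25, the ligand of CCR9, varied little, at 0.753 ± 0.0618 FPKM in MI_NAV libraries and 0.797 ± 0.187 FPKM in MI libraries (log2 fold change -0.04, SE 0.142, adjusted p = 0.936, limma). Ccl1 and Ccl20, ligands of CCR8 and CCR6, were at most 0.0686 and 0.0983 FPKM.

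Cx3cl1, fractalkine, is a membrane-bound chemokine of endothelial and tubular cells that holds monocytes through CX3CR1. In deposited FPKM it was the only other ligand whose groups did not overlap. It was at 6.50, 4.70, 5.60, 4.59 and 6.58 FPKM in MI_NAV 1 to 5 and at 7.28, 8.62, 6.98, 7.25 and 9.95 FPKM in MI 1 to 5. In FPKM as deposited, every MI_NAV library was below every MI library, MI 4 included. The mean was 5.59 ± 0.949 FPKM in MI_NAV libraries and 8.02 ± 1.26 FPKM in MI libraries, and the log2 fold change of -0.48 did not pass (SE 0.153, adjusted p = 0.213, limma). With median-of-ratios size factors for the libraries it was -0.34 (adjusted p = 0.243, limma). Overlap was judged in deposited FPKM. Divided by these factors, which were 1.17 for MI 1 and 0.737 for MI_NAV 2, MI 1 fell below MI_NAV 2. The groups of Cx3cl1 thus overlapped on that scale. Xcl1, lymphotactin, made by T and natural killer cells, was at most 0.984 FPKM, in MI 2. Cx3cl1 lies on chromosome 8 (94772009 to 94782427), between Ccl22 and Ccl17, neither of which reached the limit in 5 libraries.

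On the receptor side none of the 3 tested genes passed. Ccr2, the receptor of inflammatory monocytes (chromosome 9, 124101950 to 124113557), was at 0.314, 0.374, 0.248, 0.678 and 0.381 FPKM in MI_NAV 1 to 5 and at 1.23, 1.52, 0.982, 0.256 and 1.73 FPKM in MI 1 to 5. It reached the limit through 4 MI libraries and MI_NAV 4, and MI 4 was within the MI_NAV range. The log2 fold change was -0.80 (SE 0.259, adjusted p = 0.222, limma) with MI 4 and -1.05 (SE 0.182, adjusted p = 0.00794, limma) without it. Of the macrophage and monocyte markers, 12 of 12 were in the table and 7 were tested. None of the 7 passed (adjusted p = 0.0748 to 0.595, limma). The summed FPKM of the list was 38.4, 18.2, 16.6, 37.7 and 26.8 in MI_NAV 1 to 5 and 76.5, 86.8, 55.9, 31.0 and 88.7 in MI 1 to 5. Lysozyme (Lyz2) and the complement genes C1qb and C1qa led that sum, and MI 4 was again in the MI_NAV range. In RNA of a whole tissue, fewer cells of a type and less RNA in each cell cannot be told apart, and the part of these cells in the Ccr2 values was not tested.

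Cxcr4, the receptor of CXCL12, was at 1.42, 0.291, 0.590, 0.816 and 0.947 FPKM in MI_NAV 1 to 5 and at 0.904, 0.950, 1.56, 0.820 and 1.19 FPKM in MI 1 to 5. MI_NAV 1 and MI_NAV 5 lay within the MI range and the other 3 MI_NAV libraries below it, and the difference did not pass (log2 fold change -0.31, SE 0.221, adjusted p = 0.564, limma). Ackr3 (chromosome 1, 90203980 to 90216751) was at 10.2, 6.44, 9.41, 11.6 and 10.9 FPKM in MI_NAV 1 to 5 and at 10.9, 8.25, 7.12, 9.93 and 10.4 FPKM in MI 1 to 5, with a log2 fold change of 0.04 (SE 0.176, adjusted p = 0.947, limma). Ackr3 was thus about as abundant as its ligand Cxcl12 per length of transcript (means over the 10 libraries of 9.51 and 8.20 FPKM), while Cxcr4, the signalling receptor of that ligand, averaged 0.948 FPKM.

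The receptors Cx3cr1 and Cxcr6 of resident and infiltrating leukocytes missed the limit by 1 library. Cx3cr1, the receptor of CX3CL1 on monocytes and macrophages, was at 0.284, 0.216, 0.214, 0.405 and 0.289 FPKM in MI_NAV 1 to 5 and at 1.44, 1.10, 1.10, 0.182 and 1.61 FPKM in MI 1 to 5. Cxcr6, the receptor of CXCL16 on T and natural killer cells, had 0.355, 0, 0.0446, 0.335 and 0.262 FPKM in MI_NAV 1 to 5 and 0.775, 1.08, 0.683, 0.185 and 0.783 FPKM in MI 1 to 5. In both, 4 MI libraries lay above all MI_NAV libraries and MI 4 lay among or below them. Neither reached 0.5 FPKM in any MI_NAV library, so that a lower limit would keep them through MI libraries alone, and no test is given. Markers of T and natural killer cells, 12 of 12 in the table and 0 tested, summed to 1.54, 1.22, 0.517, 1.96 and 1.49 FPKM in MI_NAV 1 to 5 and to 4.22, 4.33, 2.97, 1.12 and 7.50 FPKM in MI 1 to 5, and their part in these values was not tested.

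The other signalling receptors were lower still. Ccr7, the receptor of the Ccl21 and Ccl19 proteins, was at 0.0245 to 0.226 FPKM in MI_NAV libraries and 0 to 0.728 FPKM in MI libraries, with 0 in MI 4. Cxcr3 reached 0.689, Xcr1 0.532 and Ccr1 0.415 FPKM, each of them in an MI library, while Ccr10 reached 0.311 FPKM in MI_NAV 5. Ccr8 and Cxcr5 were at most 0.257 and 0.203 FPKM. Ccr9, Ccr3, Ccr6 and Ccr4 never exceeded 0.0472 FPKM, and the atypical receptors Ackr1, Ackr2 and Ackr4 were at most 0.153, 0.0822 and 0.0852 FPKM.

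**Figure D3:**
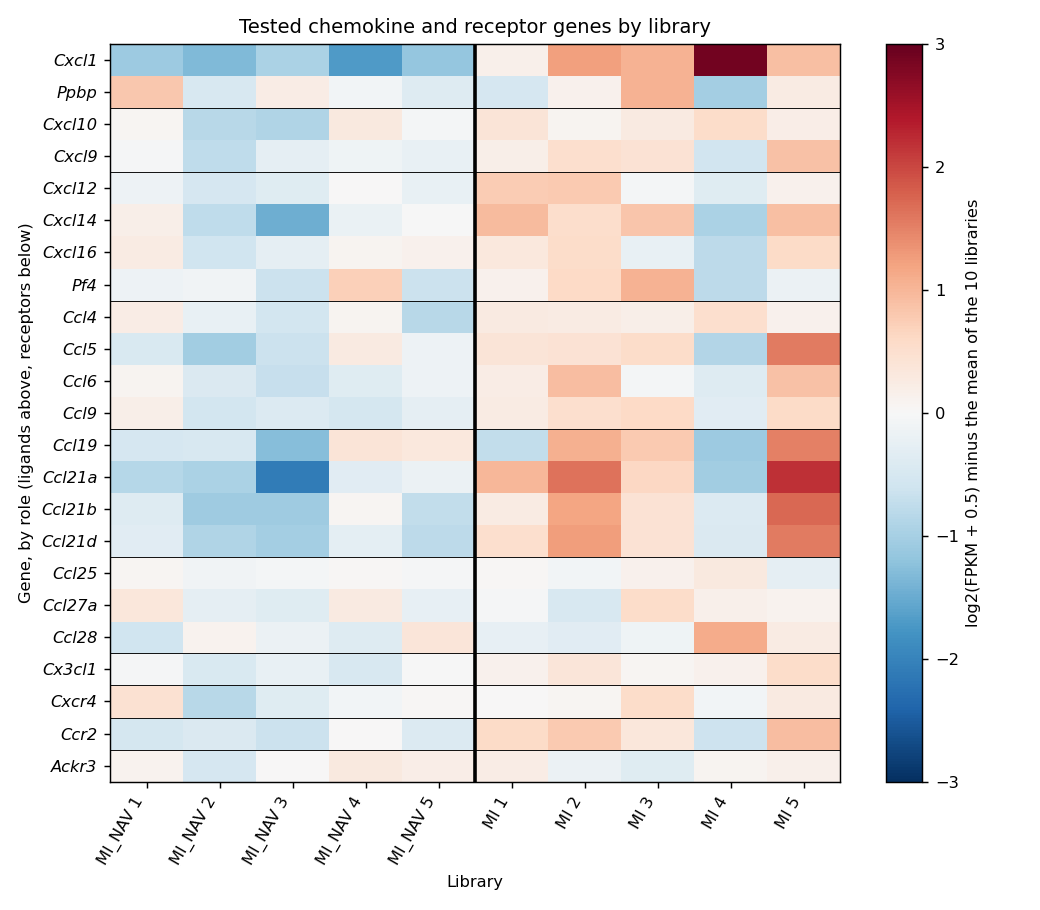
Each tested ligand and receptor (rows, grouped by role) in each library (columns, MI_NAV left of MI), as log2(FPKM + 0.5) minus the mean of the gene over the 10 libraries, red above and blue below it. MI 4 has the darkest red for Cxcl1 and is blue, like most MI_NAV libraries, for Cxcl14, Ccl5, the CCR7 ligands and Ccr2.

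The ligands were then counted as a group. Of 20 tested ligand genes, 19 had a log2 fold change below 0, where 71.7% of all tested genes did, and the median was -0.58, against -0.12 over all genes. Of the 20, 12 had an unadjusted p under 0.05 and were lower, and 0 were higher, where 11.5% of all genes were lower by that measure. Only Cxcl1 passed the adjusted test. In deposited FPKM the groups did not overlap, with MI_NAV lower, for 2 ligands (Cxcl1 and Cx3cl1), where 2.57% of all genes had such values. Of 3 receptors, 2 were below 0 (median -0.31), 1 had an unadjusted p under 0.05 (Ccr2) and 0 showed no overlap. The ligands were measured in the same libraries and include copies, and genes can be kept through the group in which they are high, so these counts are a description. With no filter on low values, 27 of 40 ligands were below 0 (67.5%), close to the 65.7% of all genes, and 11 of 40 had an unadjusted p under 0.05 and were lower (27.5%), where 8.34% of all genes were. With median-of-ratios size factors the median of all genes was 0.01, and 47.9% of all genes were below 0. In that fit 17 of 20 ligands were below 0 and their median was -0.48. Of the 20, 9 then had an unadjusted p under 0.05 and were lower, and 0 were higher. Of all 13412 genes 1057 were lower by that measure and 988 were higher.

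Over all tested genes, MI_NAV 2 was the lowest library of its group for 65.7% and MI 3 for 44.3%. Without MI_NAV 2, 60.1% of all tested genes and 19 of 20 ligands were below 0. MI 4 weighed on the counts of ligands. It was the lowest MI library for 13 of 20 tested ligands (65%), where it was lowest for 20.5% of all tested genes. Without it, 6 ligands passed as lower (Cxcl1, Ccl21a, Ccl21b, Ccl21d, Ccl9 and Cxcl14) and so did Ccr2, where 2.12% of all genes passed as lower. In deposited FPKM the groups then did not overlap for 9 ligands and for Ccr2, where 5.18% of all genes had such values. For Ccl21a, Ccl21b, Ccl21d, Ccl9, Cxcl14 and Ccr2, MI 4 lay in the MI_NAV range, so that leaving it out widens their difference. Their values without MI 4, here and above, are therefore a description. With any other single library left out, 0 or 1 ligands passed. The plot of fold changes sets the fits with and without MI 4 side by side.

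**Figure D4:**
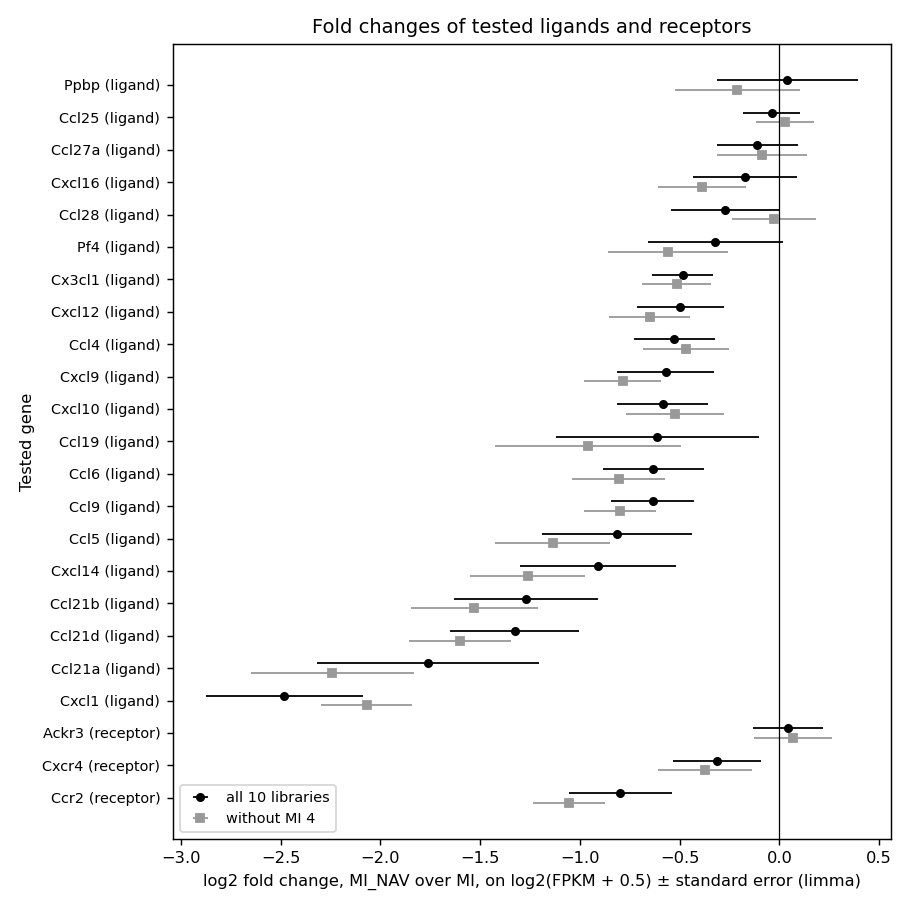
Log2 fold change of MI_NAV over MI for each tested ligand (upper rows) and receptor (bottom rows) with its standard error from limma, for all 10 libraries (black circles) and without MI 4 (grey squares). Most ligands move further below 0 without MI 4, Cxcl1 lies at -2.48 with MI 4 and at -2.07 without it, and Ackr3 and Ccl25 stay near 0.

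Endothelial markers are given beside the ligands. All 10 were in the table and tested, and their summed FPKM was 18.1, 17.1, 18.3, 36.9 and 24.4 in MI_NAV 1 to 5 and 60.5, 69.0, 49.0, 31.7 and 76.3 in MI 1 to 5. Robo4 and Eng, receptors of vascular endothelium, passed as lower (log2 fold changes -1.27 and -1.55, adjusted p = 0.0317 for each, limma), and the other 8 did not pass (adjusted p = 0.0673 to 0.320, limma). Fibroblast markers (6 of 6 in the table and tested) summed to 3.12 to 10.5 FPKM in MI_NAV libraries and 4.12 to 16.2 FPKM in MI libraries, and B cell markers (4 of 4 in the table, 1 tested) to 0.318 to 1.62 FPKM in MI_NAV libraries and 0.236 to 2.82 FPKM in MI libraries, with MI 4 lowest of the MI group in both. The endothelial sums of the 2 groups overlapped only through MI_NAV 4 and MI 4. A fit with this level as a covariate can therefore hardly part the group from the covariate. The part of the endothelial level in the ligand values was not tested. With the endothelial level as a covariate the median of all tested genes was 0.17 and 34.2% were below 0. Standard errors grew, for Ccl9 from 0.208 to 0.373 and for Ccl6 from 0.252 to 0.377. In that fit 8 of 20 ligands were below 0, the median log2 fold change of the ligands was 0.26, that of the receptors was 0.36, and no ligand or receptor passed. For Cxcl1 it gave -3.98 (adjusted p = 0.0558, limma), and Cxcl1 was highest in MI 4, in which the summed endothelial, macrophage, T cell and neutrophil lists were the lowest of the MI group. Gene by gene, MI 4 was the lowest MI library for 8 of 10 endothelial markers (not Esam or Cdh5), for 11 of 12 macrophage markers (not Csf1r) and for 9 of 12 T or natural killer cell markers (not Gzma, Cd4 or Ncr1).

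**Figure D5:**
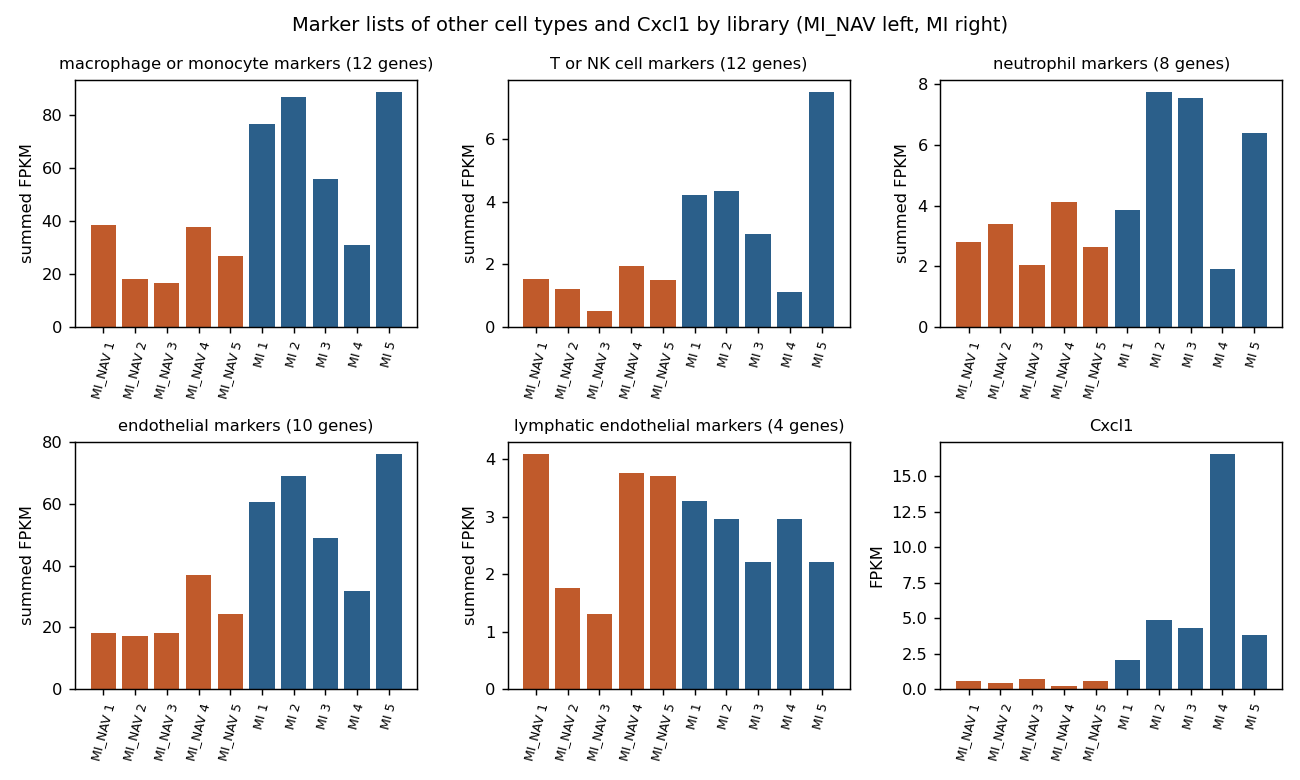
Summed FPKM of 5 marker lists and FPKM of Cxcl1 in each library (bars, MI_NAV in orange on the left and MI in blue on the right). MI 4 has the lowest macrophage, T or NK cell, neutrophil and endothelial sums of the MI group and the highest Cxcl1, at 16.6 FPKM.

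Most genes that act before and after the receptors did not pass the test. Of 106 listed genes of chemokine receptor signalling, extracellular handling and NF-κB induction, 103 were in the table and 76 were tested. Of these, 2 passed as lower and 0 as higher, where 0.35% of all genes passed as lower. A log2 fold change below 0 was found for 65 of the 76, where 71.7% of all genes had one, and the median was -0.22, against -0.12 over all genes. With an unadjusted p under 0.05, 19 of the 76 were lower, where 11.5% of all genes were. Il1b, interleukin-1β, an inducer of Cxcl1 through NF-κB, was at 0.477, 0.233, 0.608, 0.424 and 0.657 FPKM in MI_NAV 1 to 5 and at 2.88, 1.43, 3.59, 5.69 and 2.46 FPKM in MI 1 to 5. No MI_NAV library reached the MI range, and MI 4 was highest, as for Cxcl1 (log2 fold change -1.83, SE 0.258, adjusted p = 0.0293, limma). Stat2, a transcription factor of interferon signalling, was at 1.73, 0.867, 0.954, 1.24 and 1.72 FPKM in MI_NAV 1 to 5 and at 2.55, 3.00, 3.33, 2.32 and 2.66 FPKM in MI 1 to 5, without overlap (log2 fold change -0.88, SE 0.171, adjusted p = 0.0458, limma). Both missed the threshold when MI_NAV 1, MI_NAV 2, MI_NAV 3, MI_NAV 5, MI 1, MI 3 or MI 5 was left out.

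In the signalling list 1 of 44 tested genes passed (Stat2), and the most abundant members were Cdc42, a small GTPase of cell movement (65.6 ± 11.4 FPKM in MI_NAV libraries and 67.4 ± 15.5 FPKM in MI libraries, log2 fold change -0.02), and the G protein subunits Gng12 (0.05) and Gnb2 (-0.19). Of 20 tested genes of extracellular handling none passed. The syndecan Sdc4, a heparan sulfate proteoglycan that holds chemokines at the cell surface, was at 89.9 ± 17.3 FPKM in MI_NAV libraries and 96.4 ± 7.60 FPKM in MI libraries (log2 fold change -0.12), while Gpc4 lay at -0.09 and Sdc2 at 0.18 on that scale. In the NF-κB list 1 of 12 passed (Il1b), where 0.35% of all genes passed as lower, and all 12 were below 0, where 71.7% of all genes were. Nfkbia, the inhibitor of NF-κB that NF-κB itself induces, was at 6.72, 4.26, 5.27, 9.59 and 11.3 FPKM in MI_NAV 1 to 5 and at 9.21, 10.1, 9.51, 27.2 and 13.6 FPKM in MI 1 to 5. MI 4 was highest here as well, the groups overlapped, and the difference did not pass (log2 fold change -0.82, adjusted p = 0.312, limma). In the same list Nfkbiz, Rela and Il17ra were also highest of the MI group in MI 4, whereas Nfkbie and Il1r1 were lowest there. In the tested genes of the list other than these and Il1b, MI 4 was neither. The part of NF-κB in the Cxcl1 values was not tested. Tnfrsf1a, a receptor of tumour necrosis factor, and Rela, an NF-κB subunit, had log2 fold changes of -0.33 and -0.29 and did not pass (adjusted p = 0.394 and 0.408, limma).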

How the data were processed

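RNA sequencing of 10 libraries, 5 labelled MI_NAV and 5 labelled MI, was analysed from the deposited table of FPKM values, which the authors made per gene and library. Poly(A) RNA was made into strand-marked paired-end libraries per the labels, and by the processing notes of the submitters reads were trimmed with cutadapt 1.9, aligned to mm10 with HISAT2 2.0.4 and quantified with StringTie 1.3.4d. Which annotation release was used is not stated in the sources used here. Depth was estimated from the smallest steps between the values of 15449 genes with a single transcript.

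The 13412 of 29868 genes that reached 0.5 FPKM in 5 or more libraries were fitted on log2(FPKM + 0.5) with the group as the only term, in limma 3.58.1 under R 4.3.3 (functions lmFit and eBayes, with a trended and robust prior), with Benjamini-Hochberg adjustment over all of them. "Passed" means an adjusted p under 0.05, and "called" adds a log2 fold change of 1 or more in either direction. The script was tested on simulated data. There were 23 alternatives (pseudocounts, filters, scalings, weights, covariates, a replicate block and each library left out), of which the limit in 4 libraries was added after the data were seen. Figures were drawn with matplotlib 3.10.9.

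The genes, the lists and the alternatives were chosen with earlier results of these data known. Values in every library are given for genes that passed, the 8 of lowest p, the 6 of highest mean, each tested receptor and Cxcr2 with its ligands, and further such genes (Cxcl10, Cxcl14, Cx3cr1, Cxcr6, Ccl2 and Nfkbia) were picked after their values were seen. The values of 1 untested receptor gene are not reported here, though it stays in the counts. Pathway genes named with a fold change passed or were the 3 of highest mean in their list. Promoters are from RefSeq on GRCm38.p6, and transcripts were compared in GENCODE M21.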

Additional observations from a re-analysis of the deposited data

Results flagged for a closer look

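In FPKM, Cxcl1 in MI 4 lay above the other MI libraries. Its value was 16.6 FPKM, against 2.05 to 4.86 FPKM in MI 1, MI 2, MI 3 and MI 5. The gap to the next library was 0.806 of the range of the MI group, above the critical value of 0.71 for 5 libraries in Dixon's test. That ratio was taken in FPKM and not on the log2 scale of the other tests. In all, 48 groups of 5 libraries were examined in this way, over the 24 tested genes, and 1 was past the critical value, where chance gives about 1 in 20. So 1 of 48 is no more than chance would give. Every MI_NAV library was below the MI range with and without MI 4.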

How the results depend on the processing

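Over all tested genes 30 were called (29 lower and 1 higher). The count was 18 with a pseudocount of 1, 0 without a filter on low values, 117 with array weights, 6 with the replicate block, 1 with the endothelial level as covariate, 167 without the 4 libraries of highest mitochondrial share, and 1 to 197 with 1 library left out, 197 being without MI 4 and 37 without MI_NAV 4. Without the filter, 2490 genes had an unadjusted p under 0.05 and were lower, and 319 were higher. Size factors called 17 lower and 5 higher (77.3% lower, against 96.7%). Ligands that passed numbered 1. They were 0 without the filter, with the replicate block and with the endothelial covariate, 2 with array weights, 4 without the 4 libraries, and 0 to 6 with 1 library left out. Receptors that passed numbered 0, but 1 with array weights, without the 4 libraries and without MI 4, and 0 to 1 with 1 library left out. In each of these 3 fits that receptor was Ccr2. Over all 13412 tested genes, 321 passed as lower with array weights, 218 without the 4 libraries and 284 without MI 4. In the same order, 57, 84 and 8 passed as higher. In the fit reported above 47 passed as lower and 2 as higher. Pathway genes that passed numbered 2. They were 1 with a pseudocount of 0.1 or the replicate block, and 0 without the filter or with the endothelial covariate. With array weights they were 5, and with 1 library left out they were 0 to 5. Without the 4 libraries they were 4, of which 3 were lower and 1 was higher. Without a filter, 0 of the chemokine and receptor genes were left untested, against 39.

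The ligand median (-0.58) was -0.21 without the filter and 0.26 with the endothelial covariate (in which the median of all genes was 0.17), and -0.72 to -0.48 with 1 library left out. The receptor median (-0.31) was 0.042 with a filter of 1 FPKM, which left Ackr3 alone, -0.76 with the limit in 4 libraries, which added Cx3cr1 and Cxcr6 through MI libraries alone, 0.36 with the endothelial covariate, 0.031 without the 4 libraries, and -0.47 to -0.15 with 1 library left out. Except where fewer or other genes were tested, the cause was not tested. Cxcl1 kept its direction in all 23 alternatives and passed in 12, with an adjusted p of 0.00146 to 0.130 from limma, 0.107 with the replicate block. Same-numbered libraries showed no shared deviation, and 1 of 5 matched best with its own number. The block changed no call of a chemokine or receptor gene other than Cxcl1. Over the tested ligand and receptor genes and Ccl19-ps3, 491 values kept their direction and side of the threshold, 12 newly passed, 11 no longer did, and 29 changed sign with no pass in either fit. With the endothelial covariate these were Ccl5 (0.86), Ccl6 (0.23), Ccl19 (1.23), Ccl19-ps3 (0.61), Ccl21a (0.67), Ccl21b (0.30), Ccl21d (0.038), Cxcl9 (0.31), Cxcl12 (0.31), Cxcl14 (0.41), Cxcl16 (0.94), Pf4 (0.50) and Ccr2 (0.41). Ccl25 and Ccl27a turned to 0.052 and 0.023 with size factors, 0.017 and 0.078 with array weights and 0.13 and 0.26 without the 4 libraries, where Cxcr4 was at 0.031. With 1 library left out, Ccl25 ranged from -0.11 to 0.029, Ccl27a from -0.25 to 0.012, Ppbp from -0.21 to 0.31 and Ackr3 from -0.046 to 0.17. Values near 0.5 FPKM rest on few fragments.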
